A study of Mus musculus with 3 samples.

Results

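The immunoglobulin heavy variable genes, whose symbols start with Ighv, were 183 of the 56980 genes listed for single-cell RNA libraries of mouse spleen. Of the 183, 113 are annotated as functional gene segments and 70 as pseudogenes. Their use was read in plasma cells, the antibody-secreting end stage of the B cell line. These were taken as base cells, with at least 500 unique molecular identifiers (UMIs, each a count of 1 captured transcript) and under 10% mitochondrial UMIs, that held at least 5 Jchain UMIs and a UMI of Sdc1, Derl3, Tnfrsf17 or Prdm1. The rule gave 313 of 10608 base cells in IR_HSO, 339 of 12866 in IR and 63 of 9163 in control. For contrast, B cells of the control library were taken as base cells with at least 2 UMIs of Cd79a and Cd79b together and at most 2 Jchain UMIs, which gave 4636 cells.

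The mice were wild type in all groups. IR_HSO mice received 8.5 Gy of radiation and HSO, which the series title gives as hemp seed oil. IR mice received 8.5 Gy and what the label spells "colvent control", read here as a vehicle control with some doubt. Control mice were not irradiated, and no vehicle is named for them. Each group is 1 10x Genomics library, so no difference between groups has a replicate check and no test was made. The labels give neither the number of mice in a library, their strain, age or sex, nor the time after irradiation or the dose of the oil. Intervals are exact Clopper-Pearson 95% intervals. Where no cell was seen, the share that a count of 0 allows is given as 3 cells over the total, a different and tighter bound. Both cover counting error only.

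Each B cell builds its heavy chain by joining 1 Ighv segment to a D and a J segment, and as a rule only 1 of its alleles yields a heavy chain, so a plasma cell is expected to transcribe a single Ighv gene at a very high level. The segment carries the first and second hypervariable loops of the heavy chain and only the start of the third. The constant gene spliced to it sets the isotype, IgM before class switching and IgG or IgA after it. In the mouse the Ighv5 and Ighv2 families lie nearest to the D segments and the large Ighv1 family lies farthest away.

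The germline segments of 6 genes are shown because the largest groups of plasma cells and the gene pairs described further on rest on them. Each is the last 294 bases of the gene's GENCODE M21 transcript, built on GRCm38 chromosome 12 and written 5′ to 3′ along the coding (minus) strand. Capitals run from the conserved cysteine codon TGT to the 3′ end, the germline start of the third hypervariable loop.
Ighv2-3: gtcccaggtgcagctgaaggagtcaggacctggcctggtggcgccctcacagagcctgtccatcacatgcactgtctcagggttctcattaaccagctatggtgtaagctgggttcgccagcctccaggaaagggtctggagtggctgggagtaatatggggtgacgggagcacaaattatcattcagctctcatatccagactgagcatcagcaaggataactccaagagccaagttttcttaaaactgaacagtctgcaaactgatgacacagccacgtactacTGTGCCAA
Ighv7-1: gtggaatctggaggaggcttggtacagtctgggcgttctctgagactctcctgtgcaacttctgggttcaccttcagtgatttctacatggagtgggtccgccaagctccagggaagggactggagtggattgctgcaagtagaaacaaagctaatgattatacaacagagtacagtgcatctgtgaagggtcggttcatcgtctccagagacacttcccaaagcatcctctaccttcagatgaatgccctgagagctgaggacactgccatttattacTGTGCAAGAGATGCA
Ighv3-6: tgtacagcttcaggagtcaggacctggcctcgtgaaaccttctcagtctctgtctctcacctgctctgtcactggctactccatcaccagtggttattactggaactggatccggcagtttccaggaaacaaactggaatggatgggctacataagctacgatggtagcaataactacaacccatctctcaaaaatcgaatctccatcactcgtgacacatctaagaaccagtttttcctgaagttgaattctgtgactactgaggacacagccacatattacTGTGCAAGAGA
Ighv1-9: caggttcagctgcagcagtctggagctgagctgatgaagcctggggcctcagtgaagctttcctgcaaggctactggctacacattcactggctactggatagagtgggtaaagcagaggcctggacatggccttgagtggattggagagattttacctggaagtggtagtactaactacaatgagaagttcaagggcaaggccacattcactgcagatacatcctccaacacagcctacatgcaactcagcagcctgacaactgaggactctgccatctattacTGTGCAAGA
Ighv1-19: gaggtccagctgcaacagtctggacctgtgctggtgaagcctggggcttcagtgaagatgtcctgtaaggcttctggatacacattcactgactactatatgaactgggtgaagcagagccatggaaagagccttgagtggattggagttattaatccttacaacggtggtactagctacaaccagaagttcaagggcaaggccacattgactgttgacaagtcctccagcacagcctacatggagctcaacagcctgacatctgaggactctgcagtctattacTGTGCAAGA
Ighv11-2: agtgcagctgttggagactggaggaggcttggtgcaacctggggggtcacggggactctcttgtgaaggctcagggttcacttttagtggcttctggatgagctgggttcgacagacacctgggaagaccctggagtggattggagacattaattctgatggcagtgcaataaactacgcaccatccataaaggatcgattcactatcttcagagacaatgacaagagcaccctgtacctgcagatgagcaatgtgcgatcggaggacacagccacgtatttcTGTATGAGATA
The part in capitals is where junctional bases and the D segment are added in a rearranged gene, and it held 8 bases in Ighv2-3 and 15 in Ighv7-1. The files hold counts per gene and no reads across the junction, so cells that share a gene could not be assigned to clones.

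The libraries held 45636807 UMIs in IR_HSO, 50836313 in IR and 47298108 in control, with a median of 3322, 3139 and 4230 UMIs per base cell in that order of libraries. Plasma cells were 2.95% of base cells in IR_HSO (interval 2.64 to 3.29), 2.63% in IR (2.36 to 2.93) and 0.688% in control (0.529 to 0.879). B cells by the rule above numbered 78 in IR_HSO, 162 in IR and 4636 in control, so these shares have unlike denominators. A higher share therefore does not show more plasma cells per spleen. Markers outside the rule were present in them: Xbp1, the transcription factor of the secretory state, had a UMI in 89.1% of plasma cells in IR_HSO, 94.4% in IR and 98.4% in control. Plasma cells of the control library also held more B cell RNA. All 12 B cell markers together summed to 581 CPM (counts scaled to the plasma cell UMIs of the library) in IR_HSO, where Fcer2a and Pax5 were at 0, to 661 CPM in IR and to 1661 CPM in control. In T cells, chosen to lack Cd79a and Cd79b, these markers were also highest in control. They summed there to 57.6, 62.7 and 285 CPM of T cell UMIs in IR_HSO, IR and control. Cells with a UMI of the cycling genes Mki67 or Top2a were 17.6% of plasma cells in IR_HSO, 20.1% in IR and 55.6% in control. The 3 T cell genes Cd3d, Cd3e and Cd3g together had at least 2 UMIs in 22%, 26% and 19% of the plasma cells of IR_HSO, IR and control. All 12 T cell markers were above 0 in each library and summed to 466, 623 and 427 CPM in the same order. The 10 pancreatic acinar markers summed to 182 CPM in IR_HSO, 252 CPM in IR and 0.701 CPM in control, where 9 of them were at 0. In T cells the acinar markers summed to 820, 2290 and 1.30 CPM in the same order. The 8 NK cell markers, all above 0, summed to 320, 450 and 224 CPM, and the 6 erythroid markers to 0.253, 0 and 67.3 CPM. The part of these in Ighv usage was not tested, beyond leaving out the cells with T cell or B cell UMIs as an alternative. The libraries shared 54 barcodes between IR_HSO and IR, 34 between IR_HSO and control and 44 between IR and control. No shared barcode was a plasma cell in both of its libraries.

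Ighv transcripts stood far above the level of free RNA in plasma cells. They made up 21.3 of every 10000 UMIs in plasma cells of IR_HSO, 14.1 in IR and 12.9 in control. In T cells, which should make no such mature transcript, the level was 0.0783, 0.0606 and 0.0214 per 10000 UMIs, so that plasma cells stood 272-fold, 233-fold and 601-fold above the T cells of their own library. A UMI of any Ighv gene was seen in 94.9% of plasma cells in IR_HSO, 95% in IR and 100% in control, against 3.13%, 2.42% and 1.16% of T cells. The median depths behind these shares were 9851, 13710 and 20327 UMIs per plasma cell. B cells of the control library stood at 1.07 per 10000 UMIs, and 35.4% of them held an Ighv UMI. Across the 183 genes the Ighv UMIs of T cells ranked like those of plasma cells, with a Spearman rho of 0.816, given as a description of genes that share libraries and free RNA.

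**Figure D1:**
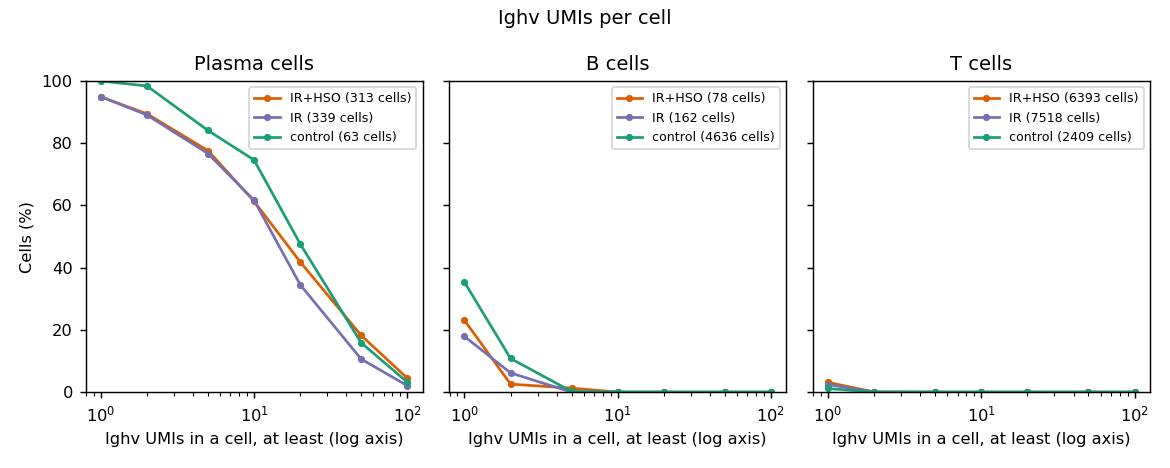
Percentage of cells (vertical axis) with at least a given number of Ighv UMIs (horizontal log axis) in plasma cells, B cells and T cells, 1 line per library. At 10 or more UMIs the lines of plasma cells remain above 60% in every library, while those of B and T cells are near 0.

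Even so the segment was thinly sampled. The median plasma cell held 14 Ighv UMIs in IR_HSO, 14 in IR and 19 in control, and the highest held 181, 159 and 180. There were 1.40 Ighv UMIs per 100 heavy constant UMIs in plasma cells of IR_HSO, 1.11 in IR and 1.30 in control, and the labels do not say at which end of the transcript the libraries were read. A cell was therefore given a dominant gene only where it held at least 10 Ighv UMIs and at least 50% of them came from 1 gene. This gave a gene to 192 plasma cells in IR_HSO, 207 in IR and 46 in control. Nearly all cells that reached 10 UMIs passed the second condition: those that failed it numbered 0 in IR_HSO, 2 in IR and 1 in control. All Ighv UMIs came from a single gene in 146 of the 192 cells of IR_HSO, 147 of the 207 of IR and 36 of the 46 of control. Among control B cells 140 had a dominant gene by the lower minimum of 3 UMIs used for them, with at least 50% from 1 gene. No control B cell held more than 18 Ighv UMIs.

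The plasma cells used many Ighv genes in each library. Dominant genes numbered 59 in IR_HSO, 57 in IR and 31 in control, 78 in all, with 20 found in every library. The 42 genes shared by IR_HSO and IR were 71.2% of those of IR_HSO and 73.7% of those of IR. Because the libraries differ in cells, the number was also computed for draws of 40 cells, where 26.1 genes were expected in IR_HSO, 25.9 in IR and 28.1 in control. In control B cells it was 28.0. The chance that 2 cells of a library share a dominant gene was 2.81% in IR_HSO, 2.74% in IR and 2.32% in control, beside 2.08% in control B cells. Without plasma cells holding at least 2 UMIs of 5 B cell genes, a setting added after the data were seen, the control value was 1.45%. At a minimum of 50 Ighv UMIs, which 36 plasma cells of IR and 10 of control reached, the chance was 5.24% in IR and 4.44% in control. Of the 113 functional genes 35 dominated no plasma cell, and no pseudogene dominated one. The pseudogenes together had 7 UMIs in plasma cells of IR_HSO, 12 in IR and 7 in control.

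**Figure D2:**
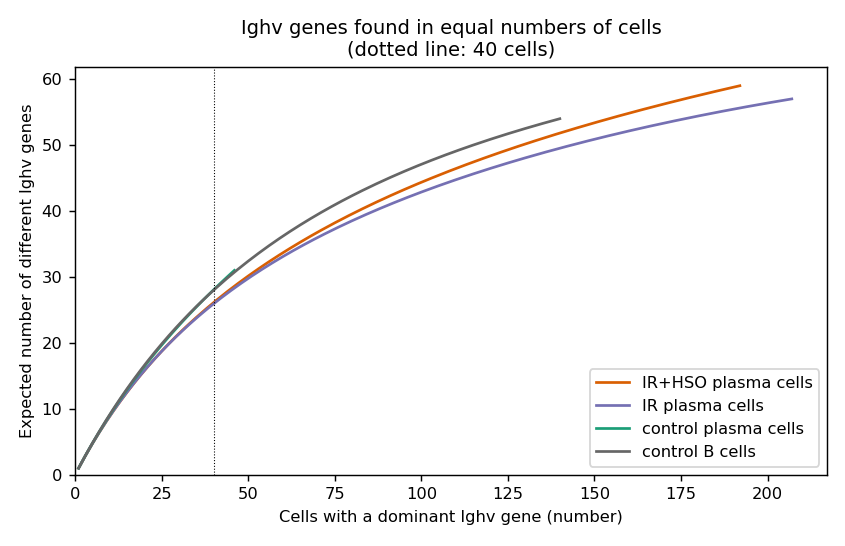
Expected number of different dominant Ighv genes (vertical axis) in random draws of a given number of cells (horizontal axis) for plasma cells of each library and for control B cells; the dotted line marks 40 cells. At 40 cells the curves lie between 25.9 and 28.1 genes.

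No gene took more than 10.9% of the cells in any library. Ighv3-6 led in IR_HSO with 15 of 192 cells, or 7.81% (4.44 to 12.6), against 8 of 207 in IR, or 3.86% (1.68 to 7.47), and 1 of 46 in control. Ighv6-3 and Ighv7-1 followed in IR_HSO with 13 cells each, against 9 each in IR and 2 each in control. In IR the leading gene was Ighv2-3. It dominated 1 of 192 cells in IR_HSO, 17 of 207 in IR, or 8.21% (4.86 to 12.8), and none of 46 in control, which allows a share of up to 6.52%. The difference of -7.69 percentage points (IR_HSO minus IR) was the widest of the 183 genes between these libraries. The Ighv2-3 intervals in IR_HSO (0.0132 to 2.87) and IR do not overlap, but for a gene picked this way that is no test. They also take cells as independent, while 14 of the 17 IR cells shared the light chain gene Igkv19-93. Counting repeated combinations 1 time lowered the Ighv2-3 share in IR, as given further on. Ighv1-53 came next with 2 cells in IR_HSO, 11 in IR, or 5.31%, and 1 in control, values that its near copy Ighv1-55, described further on, makes uncertain. In control the leading gene was Ighv1-9, with 5 of 192 cells in IR_HSO, 6 of 207 in IR and 5 of 46 in control, or 10.9% (3.62 to 23.6). Ighv5-6 had 0, 1 and 3 cells in IR_HSO, IR and control, and Ighv1-18 had 4, 1 and 3. All 3 control cells of Ighv1-18 held at least 2 Cd3 UMIs, and without such cells none was left. With so few control cells the intervals of Ighv1-9, Ighv5-6 and Ighv1-18 overlap between libraries. For Ighv5-6 the exact upper bound in IR_HSO was 1.90%, beside a lower bound of 1.37% in control. Ighv4-1 stood close together in the libraries, at 4.69% in IR_HSO, 4.83% in IR and 6.52% in control. With the minimum raised to 50 Ighv UMIs, which 36 plasma cells of IR reached, Ighv4-1 led in IR with 16.7%, and Ighv2-3 followed with 13.9%.

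**Figure D3:**
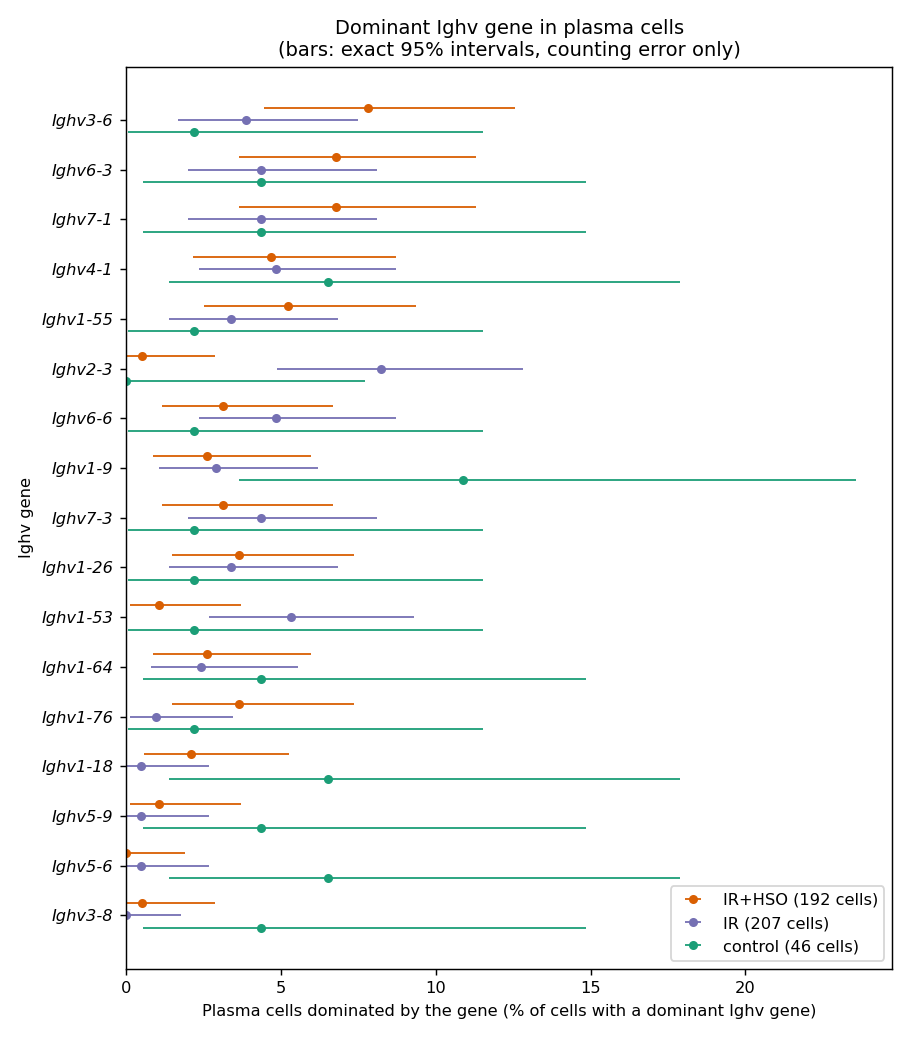
Percentage of plasma cells with a dominant Ighv gene (horizontal axis) that each leading gene dominated, with exact 95% intervals for counting error, for IR+HSO, IR and control. The point of Ighv2-3 in IR lies at 8.21%, beside 0.521% in IR+HSO and 0 in control; most other intervals overlap.

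By family, Ighv1 was the largest with 78 cells in IR_HSO, 79 in IR and 21 in control. Ighv5 had 13 cells in IR_HSO, or 6.77% (3.65 to 11.3), 10 in IR, or 4.83% (2.34 to 8.70), and 8 in control, or 17.4% (7.82 to 31.4), with intervals that overlap, beside 16 of 140 control B cells. Ighv2 had 12 cells in IR_HSO, or 6.25% (3.27 to 10.7), 30 in IR, or 14.5% (9.997 to 20.04), and none of 46 in control, beside 14 of 140 control B cells. Of its 30 cells in IR, 17 were those of Ighv2-3. Ighv7 had 19 cells in IR_HSO, or 9.90%, 18 in IR, or 8.70%, and 3 in control, or 6.52%, against 1 of 140 control B cells, or 0.714% (0.0181 to 3.92). In the irradiated libraries the lower bounds of Ighv7, 6.06% and 5.24%, lie above that interval. These bounds take cells as independent, while 8 Ighv7-1 cells in IR_HSO and 5 in IR shared the light chain gene Igkv15-103. Counting repeated combinations 1 time lowered the Ighv7-1 shares, as given further on. The B cells were called from 3 UMIs upward, not 10. In the control library Ighv9 had none of 46 plasma cells and 14 of 140 B cells, 8 of them with Ighv9-3. In control B cells the leading genes after Ighv3-6 and Ighv9-3, with 8 cells each, were Ighv1-64 with 7 and Ighv1-81 and Ighv6-3 with 6 each.

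Switched plasma cells, those of IgG and IgA together, used the Ighv genes farthest from the D segments in a larger share of cells than IgM plasma cells in each library, though not in each isotype. The dominant isotype was IgM in 67.4% of plasma cells in IR_HSO, 71.1% in IR and 61.9% in control. IgA made up 25.2%, 20.6% and 17.5% and IgG 7.35%, 8.26% and 20.6% in the same order, and no cell was called IgD or IgE. Genes of the Ighv1 and Ighv8 families, the farthest group, dominated 41 of 70 switched cells in IR_HSO, 43 of 69 in IR and 10 of 19 in control, or 58.6% (46.2 to 70.2), 62.3% (49.8 to 73.7) and 52.6% (28.9 to 75.6). In IgM cells they dominated 42 of 122 in IR_HSO, 40 of 138 in IR and 13 of 27 in control, or 34.4% (26.1 to 43.6), 29.0% (21.6 to 37.3) and 48.1% (28.7 to 68.1). The share was thus higher in switched than in IgM cells in 3 of 3 libraries, with intervals apart in both irradiated libraries and overlapping in control. Taken apart, IgA cells had 35 of 54 in IR_HSO, 30 of 46 in IR and 3 of 8 in control with these genes. The IgA share was 64.8% in IR_HSO and 65.2% in IR, and at 37.5% in control it lay under that of IgM. IgG cells had 6 of 16 in IR_HSO, 13 of 23 in IR and 7 of 11 in control, and at 37.5% the IgG share of IR_HSO lay near that of IgM.

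**Figure D4:**
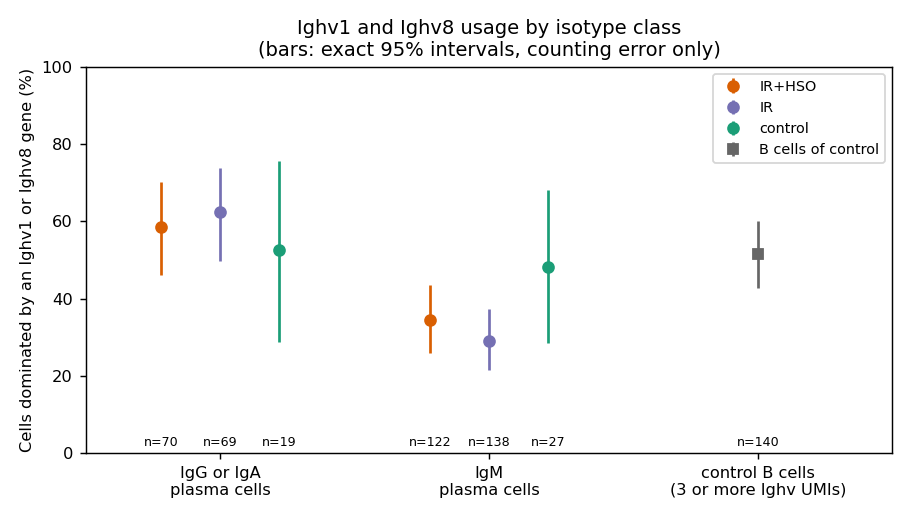
Percentage of cells dominated by an Ighv1 or Ighv8 gene (vertical axis) in IgG or IgA plasma cells, in IgM plasma cells and in control B cells, with exact 95% intervals for counting error and the number of cells n. Switched cells of IR+HSO and IR stand at 58.6% and 62.3%, above IgM cells at 34.4% and 29.0%. Control B cells stand at 51.4% (42.84 to 59.96), an interval that overlaps those of switched cells in both irradiated libraries. The B cells were called at a lower minimum of Ighv UMIs, and their share depends on that minimum, as given further on.

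How well a segment was seen also differed by family. The values by family that follow pool the cells of the 3 libraries. In IgM cells with a dominant gene, Ighv1 and Ighv8 cells held 0.941 Ighv UMIs per 100 heavy constant UMIs. Those with Ighv5 or Ighv2 genes held 1.42 and those with the remaining families 1.62. In switched cells the values were 1.28, 1.41 and 1.70 in the same order of families. By this pooled ratio the level of Ighv1 and Ighv8 cells was thus lower in IgM than in switched cells, and the other families differed less. Over all plasma cells, whatever the gene, the ratio in IgM and switched cells was 1.29 and 1.55 in IR_HSO. It was 1.11 and 1.12 in IR and 1.32 and 1.28 in control, so the pooled difference need not hold in each library. Median Ighv UMIs per cell, also pooled, were higher in switched than in IgM cells in every group of families. They were 33.5 against 19 for Ighv1 and Ighv8, 39 against 24 for Ighv5 or Ighv2 and 42 against 22 for the remaining families. The part of this in the share above was not tested beyond the settings that follow. With the gene called from 1 UMI upward, the share in switched cells was 61.2%, 67.7% and 58.3% in IR_HSO, IR and control, and in IgM cells 37.9%, 36.3% and 47.4%. Counting each combination of Ighv gene, light chain gene and isotype 1 time per library, a setting added after the data were seen, gave 55.4%, 64.2% and 52.6% in switched cells and 40.2%, 37.4% and 41.7% in IgM cells. So counted, the intervals overlapped in IR_HSO (41.5 to 68.7 in switched cells, 30.4 to 50.7 in IgM cells) as in control, and were apart in IR (51.5 to 75.5 and 28.2 to 47.3). With at least 50 UMIs the shares were 61.3%, 38.9% and 66.7% in switched cells and 15.4%, 5.56% and 28.6% in IgM cells. Only 57 plasma cells of IR_HSO, 36 of IR and 10 of control reached 50 UMIs. At 50 UMIs the intervals overlapped in IR and control, where they ran from 9.43 to 99.2 in switched and 3.67 to 71.0 in IgM cells. The share was higher in switched than in IgM cells in 3 of 3 libraries under these 3 settings. Control at 50 UMIs has too few cells to add weight to this.

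Some genes were mainly IgM and others mainly switched. Over the 3 libraries, IgM cells were 287 of the 445 plasma cells with a dominant gene. Ighv7-1, a gene known from antibodies to phosphorylcholine in mice, was IgM in all 24 of its cells over the 3 libraries (85.8% to 100%). That interval takes cells pooled over libraries as independent, though 13 of them shared Igkv15-103. Ighv2-3 was IgM in 17 of 18 cells, Ighv6-6 in 16 of 17 and Ighv6-3 in 21 of 24. Of the 18 Ighv2-3 cells, 14 shared Igkv19-93, all of them in IR. On the switched side Ighv1-19 was IgA in all 8 of its cells, 5 in IR_HSO and 3 in IR, and Ighv1-39 in all 4 of its cells. Igkv6-23 was the light chain gene of 6 of these Ighv1-19 cells and 3 of these Ighv1-39 cells. Cells of a gene therefore need not be independent. Ighv1-64 was IgM in 3 of 12 cells and Ighv1-76 in 2 of 10. Ighv14-2 led IgG with 4 of 50 cells. Ighv3-6 was mixed, with 14 IgM, 2 IgG and 8 IgA cells.

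Dominant genes also differed in the amount of segment seen per cell. Ighv4-1 cells held 13 to 181 Ighv4-1 UMIs with a median of 74, and 3.37 per 100 heavy constant UMIs. Ighv1-26 cells held 9 to 46 with a median of 17, or 0.675 per 100. These are ratios of UMIs within the same cells and are not corrected for how well each segment can be mapped. Ighv4-1 took 8.83% of all Ighv UMIs of plasma cells in IR_HSO, 8.68% in IR and 16.8% in control, while it dominated 4.69%, 4.83% and 6.52% of the cells.

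A light chain gene could be read beside the Ighv gene in 187 cells of IR_HSO, 196 of IR and 43 of control, by the same minimum of 10 UMIs and 50% from 1 Igkv or Iglv gene. These cells held 143, 156 and 39 different pairs. Pairs held by at least 2 cells took in 72 cells of IR_HSO, or 38.5%, 60 of IR, or 30.6%, and 6 of control, or 14.0%. Such shares rise with the number of cells, and in draws of 40 cells 37.0 different pairs were expected in IR_HSO, 36.6 in IR and 36.4 in control. The largest was Ighv2-3 with Igkv19-93 in IR, which held 14 of the 17 Ighv2-3 cells of that library, or 7.14% of paired cells (3.96 to 11.7), and no cell elsewhere. In paired cells of IR_HSO, none of 187 allows up to 1.60%, and in control none of 43 allows up to 6.98%. All 14 cells were IgM, with 13 to 89 Ighv2-3 UMIs and a median of 28. Their total UMIs ran between 4098 and 31438, 3 of them were cycling and 2 had at least 2 Cd3 UMIs.

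Ighv7-1 with Igkv15-103 was the largest pair of IR_HSO and came in more than 1 library. It held 8 cells in IR_HSO, or 4.28% (1.86 to 8.26), 5 in IR and none of 43 in control, all IgM. Ighv1-19 with Igkv6-23 held 5 cells in IR_HSO and 1 in IR, and the 5 of IR_HSO were IgA. In control the largest was Ighv1-9 with Igkv3-2, with 4 of the 5 Ighv1-9 cells, or 9.30% (2.59 to 22.1), all IgM; Igkv3-2 supplied 55.7% of their light chain variable UMIs. There were 37 pairs seen in at least 2 libraries and 4 in all 3, of which Ighv4-1 with Igkv4-86 was the most frequent, with 2 cells in IR_HSO, 4 in IR and 1 in control. By contrast the 17 Ighv6-6 cells held 16 different light chain genes. When each combination was counted 1 time per library, Ighv2-3 dominated 2.30% of the combinations of IR, and Ighv7-1 2.61% in IR_HSO and 1.72% in IR.

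**Figure D5:**
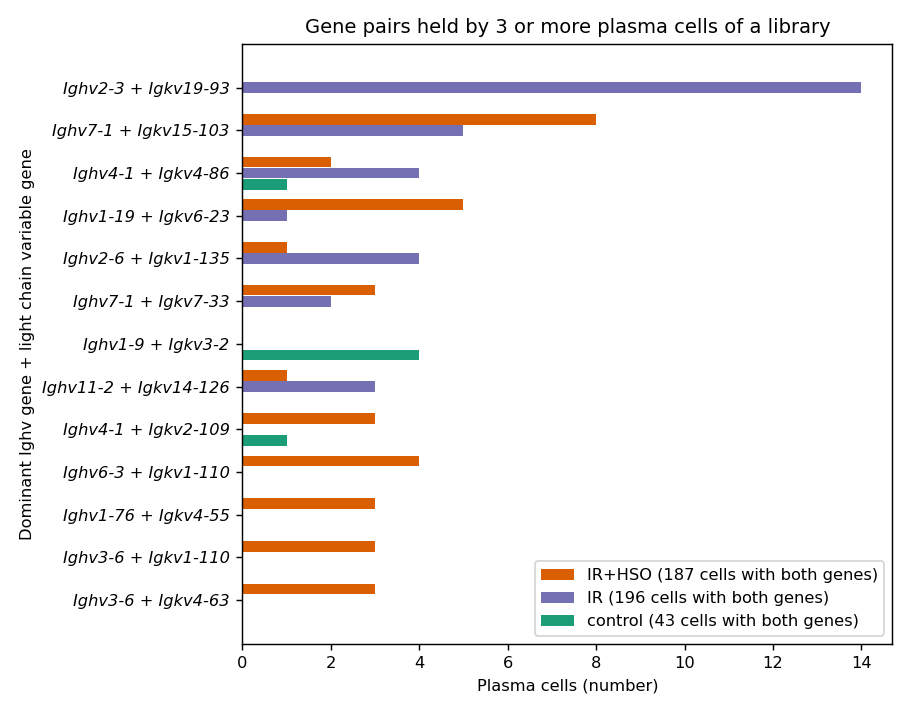
Number of plasma cells (horizontal axis) of IR+HSO, IR and control that held each pair of a dominant Ighv gene and a dominant light chain variable gene, for pairs held by at least 3 cells of a library. The longest bar is Ighv2-3 with Igkv19-93, with 14 cells in IR and none in IR+HSO or control.

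Some pairs match antibodies known from B-1 cells, a B cell lineage of the body cavities and spleen that secretes natural IgM. Ighv11-2 with Igkv14-126 and Ighv12-3 with Igkv4-91 are known from mouse antibodies to phosphatidylcholine. The first pair held 1 cell in IR_HSO, 3 in IR and none in control, and the second 1, 0 and 0. Ighv11-2 dominated 3 cells in IR_HSO, 2 of which held Igkv1-135 and Iglv1 instead, and 3 in IR. All 6 Ighv11-2 cells and the 1 Ighv12-3 cell were IgM. Ighv7-1 with Igkv7-33, known from the T15 antibodies to phosphorylcholine, held 3 cells in IR_HSO, 2 in IR and none in control, all IgM. Ighv7-1 with Igkv8-28, a light chain gene also known from phosphorylcholine antibodies, held none in IR_HSO, 2 in IR and 1 in control. The remaining control Ighv7-1 cell held Iglv1. The control counts come from 43 paired cells, where a count of 0 allows up to 6.98%. None of the 140 control B cells with a dominant gene used Ighv7-1, Ighv11-2 or Ighv12-3, which allows up to 2.14%.

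Near-identical segments blur part of the usage. Ighv1-53 and Ighv1-55 are printed here because 9 of the 15 cells led by Ighv1-53 gave at least 20% of their Ighv UMIs to Ighv1-55, and none of the 15 had Ighv1-55 at 0.
Ighv1-53: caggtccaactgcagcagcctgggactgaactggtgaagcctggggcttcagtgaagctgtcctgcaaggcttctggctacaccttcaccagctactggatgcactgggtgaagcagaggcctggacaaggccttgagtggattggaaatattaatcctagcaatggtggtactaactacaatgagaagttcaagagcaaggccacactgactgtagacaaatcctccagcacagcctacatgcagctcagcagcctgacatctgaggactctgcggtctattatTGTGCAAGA
Ighv1-55: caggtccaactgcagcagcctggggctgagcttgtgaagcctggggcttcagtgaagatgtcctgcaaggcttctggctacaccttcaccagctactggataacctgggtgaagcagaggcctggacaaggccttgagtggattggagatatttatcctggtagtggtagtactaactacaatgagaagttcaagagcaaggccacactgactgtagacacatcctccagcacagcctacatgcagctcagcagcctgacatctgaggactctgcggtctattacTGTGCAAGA
The printed stretches are 94.9% identical, with the same capitals. In reverse, 16 of the 18 cells led by Ighv1-55 had Ighv1-53 at 0. The 9 cells used 6 different light chain genes and came from every library, with 2 in IR_HSO, 6 in IR and 1 in control. With cells left out in which a second gene gave 20% or more, Ighv1-53 dominated 2.09% of the cells of IR rather than 5.31%, and with both genes taken as 1 they dominated 9.13% there, beside 8.17% for Ighv2-3. Ighv1-62-3 and Ighv1-72, 99.3% identical, split all 5 of the cells that either led. What sets the split was not tested. Cells with a second gene at 20% or more were 6 of 192 in IR_HSO, 18 of 209 in IR and 1 of 47 in control.

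Summed over plasma cells, Ighv genes gave 8428 of 3960331 UMIs in IR_HSO, 7208 of 5108204 in IR and 1835 of 1426825 in control. In such sums fewer cells of a gene and less RNA per cell cannot be told apart. For each pair of libraries, genes with at least 5 CPM in either were called higher or lower at 1.5-fold, on log2 of CPM plus 1. In IR_HSO against IR, 35 of 65 measured Ighv genes were higher and 18 lower, with a median log2 ratio of 0.63 beside 0.03 for all genes; of all 8092 genes 8.86% were called higher and 6.18% lower. In IR_HSO against control 38 of 62 were higher and 13 lower, beside 7.99% and 40% of all 8761 genes. In IR against control 35 of 60 were higher and 22 lower, beside 5.79% and 41.6% of all 8632. Both comparisons with control share that library, in which 25 of the 62 and 21 of the 60 measured genes had no UMI. With such genes set at 3 UMIs the median Ighv log2 ratio was 1.56 for IR_HSO against control and 1.49 for IR against control, beside all-gene medians of -0.45 and -0.49. Genes with no control UMI passed the 5 CPM filter only through the irradiated library, so these counts and medians cannot show a general rise. Ighv genes summed to 2128 CPM in IR_HSO, 1411 CPM in IR and 1286 CPM in control. Of the calls, 66.0% were higher for IR_HSO against IR and 74.5% for IR_HSO against control. With each gene taken as a share of all Ighv UMIs these were 51.0% and 60.8%.

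These sums follow the few cells behind each gene. Ighv2-3 had 13 UMIs in IR_HSO, 628 in IR and none in control, where the limit of 3 UMIs puts IR at least 58.5-fold higher than control. Ighv2-5 had 229 UMIs in IR_HSO, with 4 cells, and none in IR or control. Ighv1-19 had 423, 294 and 1 UMIs in IR_HSO, IR and control. Ighv7-1 stood at 142 CPM in IR_HSO, 53.1 CPM in IR and 93.2 CPM in control, and Ighv4-1 at 188, 123 and 216 CPM. Of the light chain variable genes, 43 of 72 were higher and 18 lower in IR_HSO against IR, with a median log2 ratio of 0.90. Of all genes 8.86% were higher and 6.18% lower, with a median of 0.03. The light chain variable genes summed to 8230 CPM in IR_HSO, 4325 CPM in IR and 5332 CPM in control, so that IR lay under control.

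Genes that act on the Ighv locus or on its product were read in the same sums. Of 10 genes of V(D)J recombination, which joins the segments, 7 were measured in IR_HSO against IR, with 1 higher and none lower, 7 in IR_HSO against control, with none higher and 3 lower, and 6 in IR against control, with none higher and 4 lower. Lower calls took in 40% of all genes in IR_HSO against control and 41.6% in IR against control, so the counts in this list and those that follow stand beside a broad background. For IR_HSO against IR, 8.86% of all genes were higher and 6.18% lower, with a median log2 ratio of 0.03. Rag1, the recombinase subunit, had no UMI in plasma cells of any library. Of 10 genes of class switching and hypermutation, none of the 10 measured was higher in IR against control and 7 were lower, with a median log2 ratio of -0.71 beside -0.49 for all genes, 41.6% of which were lower. In IR_HSO against control 6 of 10 were lower, with a median of -0.77 beside -0.45. Of 18 genes of antibody folding and secretion none was higher and 11 lower in both irradiated libraries against control, with medians of -0.82 for IR_HSO and -0.77 for IR, beside -0.45 and -0.49 for all genes, 40% and 41.6% of which were lower. In IR_HSO against IR, 1 of the 18 was higher and none lower. Of 16 genes of immunoglobulin transcription and RNA processing, 14 were measured in IR_HSO against IR, with 3 higher and none lower and a median of 0.34, and of 17 genes of plasma cell survival and homing 1 was higher and 2 lower, with a median of -0.06. The chaperone Hspa5 stood at 1168 CPM in IR_HSO, 1245 CPM in IR and 2108 CPM in control. Immunoglobulin genes took 58.0% of plasma cell UMIs in IR_HSO, 60.5% in IR and 45.1% in control, which lowers the CPM of every other gene where the share is larger, and how far this sets the list was not tested.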

How the data were processed

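RNA of single spleen cells was measured on the 10x Genomics platform, in 1 library each for IR_HSO, IR and control. The authors deposited raw UMI counts for each gene and barcode. Per the file headers the software was Cell Ranger 7.0.1, and the build was GRCm39 per the submitters' processing notes. The annotation release, the alignment settings and the chemistry are not given in the sources used here. The files hold barcodes left after cell calling, and none had under 500 UMIs. A filter at 10% mitochondrial UMIs left 10608, 12866 and 9163 base cells in IR_HSO, IR and control.

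The members, gene lists and settings were chosen with earlier results of these data known. A dominant gene needed 10 Ighv UMIs and 50% from 1 gene (3 UMIs in B cells), an isotype 5 heavy constant UMIs and 50%, and a light chain gene 10 UMIs and 50%. T cells, with at least 2 UMIs of Cd3d, Cd3e and Cd3g, none of Cd79a and Cd79b and at most 2 of Jchain, gave the free RNA level. Ighv genes were named if among the 8 leading genes of a library, the 5 leading in control B cells or an isotype class, the 5 largest differences each way or the 5 leading pairs, besides Ighv11-2, Ighv12-3 and Ighv7-1. Ighv1-39, Ighv1-62-3, Ighv1-72 and the pairs shared between libraries were chosen after their values were seen. Families Ighv5 and Ighv2 were taken as near the D segments and Ighv1 and Ighv8 as far, in the order of the GRCm38 annotation. Expected gene numbers came from analytic rarefaction. Summed counts were scaled to CPM with 1 CPM added before log2, and genes under 5 CPM in both libraries were not measured. No doublet caller was applied in the main values, and cells with the highest Scrublet scores were left out as an alternative. Computation used Python 3.11.15, numpy 2.4.6, scipy 1.17.1, pandas 2.3.3 and matplotlib 3.10.9, and the steps were tested on simulated data. The reference genome at hand was of another build than the files, so no coordinates are given, and sequences were matched by symbol. Alternatives covered the cell rule, the dominance rule, free RNA, doublets, scaling and repeated gene combinations.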

Additional observations from a re-analysis of the deposited data

Results flagged for a closer look

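Barcodes with 10% or more mitochondrial UMIs were outside the comparisons, and some of them met the remaining plasma cell conditions. In IR_HSO these were 8 of 2102 such barcodes, or 0.381% (exact interval 0.164 to 0.749). In IR they were 8 of 643, or 1.24% (0.539 to 2.44). In control there were none of 357 (0 to 1.03). The point values of both irradiated libraries are above 0, but the IR_HSO interval lies within that of control and the IR interval overlaps it, so no difference was detectable at this number of barcodes. The number with a dominant Ighv gene was 0 in each library.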

How the results depend on the processing

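Of 705 recomputed values over 22 settings, 669 stayed within their limit and 36 moved. The limit was the exact interval of the main value for shares of cells and 1.5-fold for other values. Such intervals are wide where cells are few, as in control, so staying within them says little there. The minimum of Ighv UMIs mattered most, and only 57 plasma cells of IR_HSO, 36 of IR and 10 of control reached 50. At 50 UMIs the share of Ighv1 and Ighv8 genes in IgM cells was 15.4% in IR_HSO, 5.56% in IR and 28.6% in control, and in switched cells of IR 38.9%. The leading gene of IR then held 16.7%, the chance that 2 cells share a gene was 5.24% in IR and 4.44% in control, and the largest pair held 8.77% in IR_HSO and 15.2% in IR. Counting repeated combinations 1 time took the IgM share of these genes in IR to 37.4%. Leaving out cells with at least 2 UMIs of 5 B cell genes took the chance in control to 1.45%. For control B cells a minimum of 10 Ighv UMIs left 1 cell, with 0 for the share of Ighv3-6 and 0 for that of Ighv1 and Ighv8 genes, and a minimum of 1 UMI gave 1560 cells and 62.7% for the last share. Scaled to Ighv UMIs, 20 Ighv genes rather than 13 were lower in IR_HSO against control. That scaling took the higher share of calls to 51.0%, beside 66.0%, for IR_HSO against IR, and to 60.8%, beside 74.5%, for IR_HSO against control, where 1 of 51 called genes changed sign. The cause of these shifts was not tested. Of 336 values of named genes 19 moved, 4 up and 15 down, among them Ighv2-3, Ighv7-1 and Ighv1-53 as given above. Ighv1-18 in control had no cell left without those holding 2 or more Cd3 UMIs. Isotype shares stayed within their intervals under each setting tried. Settings based on repeated combinations, B cell UMIs, second genes and merged Ighv1-53 and Ighv1-55 were chosen after seeing the data. No paired analysis was possible because each group is 1 library and the result comes from no test. Depth limits the usage: 121 plasma cells of IR_HSO, 130 of IR and 16 of control held under 10 Ighv UMIs. No value was had for 40 cells where a setting left fewer.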
